A study of Mus musculus with 24 samples.

Results

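Mitochondrial ribosomal protein genes were followed through the RNA-seq of a mouse study on Chd4, the ATPase of the NuRD chromatin remodelling complex, in muscle stem cells. Members were chosen by name alone, as every gene whose symbol is Mrpl or Mrps followed by a number and at most one letter. The rule found 79 of the 46078 genes in each table, which carry 78 different symbols: 49 Mrpl genes, named for the large subunit, and 30 entries (29 symbols) of Mrps genes, named for the small subunit. In culture, satellite cell-derived primary myoblasts from resting, uninjured muscle of C57BL/6 mice aged 2 to 4 months, all of genotype Chd4fl/fl, proliferated for 72 hours after adenovirus labelled CRE (AdCRE, 4 libraries) or GFP (AdGFP, 4 libraries). In regenerating muscle, satellite cells were freshly sorted 3 days after cardiotoxin injury from C57BL/6 mice of the same age range, of genotype Chd4dPax7ER (4 libraries) or Chd4fl/fl (4 libraries), by a gate that kept cells without SCA1 and CD45 and with alpha7-integrin and CD34. The 8 ATAC-seq samples of the series were not analysed here. Only the AdCRE virus was labelled with Cre, so Cre itself and loss of Chd4 cannot be told apart in culture, and the sources used here do not say whether the Chd4fl/fl mice carried or received what the Chd4dPax7ER mice did. The labels number the libraries but do not call them separate animals or cultures, so p-values measure the spread between these libraries.

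The mitochondrial ribosome translates the few proteins that the mitochondrial genome encodes, all of them core subunits of the respiratory chain and ATP synthase. Its rRNAs come from the mitochondrial genome, whereas all of its proteins are encoded in the nucleus, made in the cytosol and imported. Part of these proteins descend from the ribosome of the bacterial ancestor and part were added during the evolution of mitochondria. Nuclear genes for mitochondrial proteins are known as targets of the transcription factors NRF1, GABP (an ETS factor) and YY1. Muscle stem cells that leave quiescence and differentiate are known to build up mitochondria.

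The promoters are shown because these factors are known to act there. RefSeq promoter windows of build GRCm38.p6, which reach from 250 bases before to 50 bases after the annotated start, were at hand for 69 of the 78 symbols. Each window was searched on both strands for GCGCATGCG (an NRF1 motif), CCGGAAG (an ETS motif, bound by GABP), AANATGGC (a YY1 motif) and TATAAA (the TATA box). No motif contains another, but matches of different motifs may overlap. The ETS letters stood in 26 of 69 members (37.7%), against 20.6% of the 9346 genes with a window that were tested in the sorted cells and 9.93% of all 27025 genes with one. The YY1 letters stood in 21 members (30.4%, against 10.4% and 6.96%), and the NRF1 letters in 7 (10.1%, against 4.26% and 1.95%). TATAAA stood in 5 members (7.25%, against 8.81% and 15.7%). At least 1 of the NRF1, ETS and YY1 motifs was found in 42 members, at least 2 in 12, and all 3 in none of the 69. These matches are letters in a window and were not tested as binding sites. The 250 bases before the start are printed for 5 members on which the results below turn. These are Mrpl16, Mrpl52 and Mrpl10, which rose in sorted mutant cells, Mrps5, the 1 member that fell there, and Mrps6, which had the largest fold change in culture. Mrps28 and Mrpl38, which also rose in sorted mutant cells, are not among the 69 with a window. Capitals mark motif matches, sequences run 5′ to 3′, and all 5 genes lie on the plus strand, at chr19:11770165-11770414, chr14:54426659-54426908, chr11:97041332-97041581, chr2:127587176-127587425 and chr16:92058086-92058335 in that order.
Mrpl16: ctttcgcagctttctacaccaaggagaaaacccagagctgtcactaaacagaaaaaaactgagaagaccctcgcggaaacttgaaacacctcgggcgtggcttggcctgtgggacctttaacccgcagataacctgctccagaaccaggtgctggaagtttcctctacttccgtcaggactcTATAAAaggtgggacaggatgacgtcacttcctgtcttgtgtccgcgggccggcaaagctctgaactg
Mrpl52: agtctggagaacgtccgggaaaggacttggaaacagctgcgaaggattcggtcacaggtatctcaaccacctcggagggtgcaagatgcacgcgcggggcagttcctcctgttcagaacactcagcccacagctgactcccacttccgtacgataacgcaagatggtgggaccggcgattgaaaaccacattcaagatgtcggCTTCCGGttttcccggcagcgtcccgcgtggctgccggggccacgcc
Mrpl10: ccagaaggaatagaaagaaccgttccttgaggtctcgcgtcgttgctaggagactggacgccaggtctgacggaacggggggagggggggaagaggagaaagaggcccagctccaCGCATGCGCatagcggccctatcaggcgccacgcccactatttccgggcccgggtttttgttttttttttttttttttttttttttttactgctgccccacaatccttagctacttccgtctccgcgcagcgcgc
Mrps5: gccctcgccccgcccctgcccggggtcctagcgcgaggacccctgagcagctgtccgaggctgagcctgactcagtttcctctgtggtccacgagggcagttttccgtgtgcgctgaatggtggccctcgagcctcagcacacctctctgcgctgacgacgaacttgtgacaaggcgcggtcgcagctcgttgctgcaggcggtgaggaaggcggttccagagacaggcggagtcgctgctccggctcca
Mrps6: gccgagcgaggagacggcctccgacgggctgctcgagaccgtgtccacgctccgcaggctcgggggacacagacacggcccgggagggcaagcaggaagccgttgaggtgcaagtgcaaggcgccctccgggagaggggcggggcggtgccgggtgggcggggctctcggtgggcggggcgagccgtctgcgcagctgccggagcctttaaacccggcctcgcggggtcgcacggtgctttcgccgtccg
Of these, Mrpl16 holds TATAAA starting 68 bases before the start and none of the other motifs. Mrpl52 holds the ETS motif 47 bases before the start and again just after it, and Mrpl10 the NRF1 motif 135 bases before the start. Mrps5 and Mrps6 hold none of the 4 motifs in the window.

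**Figure D1:**
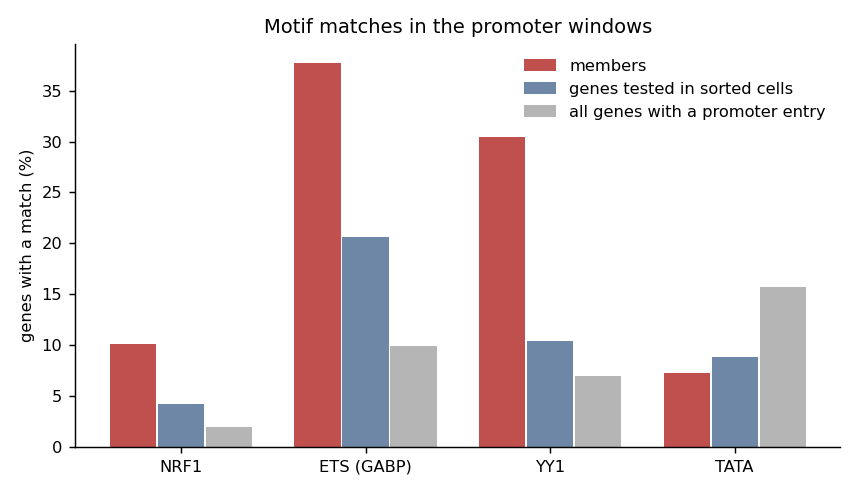
Share of genes (y axis, %) whose promoter window holds a match to each of 4 motifs (x axis), for the 69 members with a window, the genes tested in sorted cells and all genes with a window. The ETS motif was matched in 37.7% of members against 20.6% of tested genes, and TATA in 7.25% against 8.81%.

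Values are RPKM as deposited, that is reads scaled by gene length and library size. A gene was tested if it reached 0.5 RPKM in at least 4 of the 8 libraries of a setting, and fold changes are differences of mean log2(RPKM + 0.5), which understates changes of low genes. Tests are from limma with Benjamini-Hochberg adjustment over all genes tested, and a gene is called at an adjusted p under 0.05. Chd4 itself fell to 27.7% of AdGFP in the AdCRE libraries and to 44.9% of Chd4fl/fl in the Chd4dPax7ER libraries, with no overlap of the groups in either setting (limma adjusted p = 0.00374 and 0.000152). Library sums were 286802 to 326812 RPKM. Relative read depth, estimated from the steps between low values, spanned 1.64-fold in culture (AdGFP replicate 2 lowest, AdGFP replicate 4 highest) and is unknown for sorted cells. Satellite cell and myoblast markers were present in both settings (Pax7 at 24.1 to 37.1 RPKM in culture and 7.62 to 29.0 RPKM in sorted cells, Myod1 at 591 to 906 and 54.2 to 162 RPKM), while Cd34, a marker of the sort gate, was low throughout (1.19 to 8.05 RPKM).

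Of the 79 entries, 77 passed the filter in each setting. Mrpl53, a protein of the stalk, was the one symbol left out: it stayed at or below 0.0918 RPKM in culture and was listed at 0 in all sorted libraries. A second entry named Mrps23 was listed at 0 in all 16 libraries. Tested members were mid-level transcripts with a median of 17.3 RPKM in AdGFP and 13.8 RPKM in Chd4fl/fl libraries, against 7.44 and 6.35 RPKM over all tested genes, and 54 and 52 of the 77 lay above 10 RPKM. In AdGFP, Mrps6 was the highest member (78.7 ± 14.6 RPKM, SD, n = 4), ahead of Mrpl42 (63.5 ± 6.24), Mrps16 (50.9 ± 4.91), Mrpl28 (41.1 ± 1.87) and Mrpl34 (41.1 ± 5.06). In Chd4fl/fl, Mrpl42 stood first (128.4 ± 13.1 RPKM), ahead of Mrpl12 (41.3 ± 3.72), Mrps16 (40.5 ± 5.93), Mrpl32 (40.2 ± 5.43) and Mrps6 (35.2 ± 1.34). The lowest were Mrps34, Mrpl48 and Mrps36 in AdGFP (1.38 to 3.01 RPKM) and Mrpl57, Mrps10 and Mrps25 in Chd4fl/fl (2.15 to 3.57 RPKM). The order was loose: only 6 of the neighbouring pairs in AdGFP, Mrps16 over Mrpl28 among them, and 2 in Chd4fl/fl, Mrpl42 over Mrpl12 among them, had libraries that did not overlap. The members' spread between libraries was small in culture, with a median SD of 0.10 (AdGFP) and 0.11 (AdCRE) on the log2 scale against 0.17 in both groups for genes of the same range of levels. In sorted cells it was larger than that of genes of the same range of levels: 0.17 in Chd4fl/fl and 0.21 in Chd4dPax7ER, against 0.15 and 0.17.

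In culture the members as a set lay slightly lower in AdCRE than in AdGFP, and single members were called only when replicate numbers paired the libraries. Of 77 members, 59 had negative fold changes, against 6961 of 13567 over all genes. The members' median was -0.10 on the log2 scale against -0.01 over all genes. Within 0.25 of 0 lay 69 members (89.6%), against 71.7% of all genes. The number of members with positive fold changes, 18 here, ranged from 11 to 22 in the alternative fits. limma called 0 members higher (0.516% of all genes tested were) and 0 lower (0.14% of all genes), with 16 members at an unadjusted p under 0.05. In this setting the replicate number pairs the libraries, and with it as a block 3 members were called higher (17.5% of all genes) and 20 lower (18.7% of all genes). The 3 higher members are 3.9% of the 77 and the 20 lower ones 26%, so that lower calls made up a larger and higher calls a smaller share than over all genes. The 23 together are 29.9% of the members, against 36.2% of all genes. With the block and TPM scaling, an alternative added after seeing the data, they were 36.4% against 35.7%. The AdCRE libraries lay wholly above AdGFP for 1 member (3.8% of all genes) and wholly below for 15, or 19.5% (6.21% of all genes).

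Mrps6, a small subunit protein of bacterial origin, held 44.7, 49.2, 57.0 and 61.8 RPKM in AdCRE replicates 1 to 4 and 67.2, 69.0, 79.4 and 99.1 in AdGFP. All AdCRE libraries were below all AdGFP libraries, and each was below its own pair. Its fold change was -0.56 (SE 0.15, limma adjusted p = 0.142, and 0.000438 with the block), the largest of the 77 in this setting. Mrpl40, of the central protuberance of the large subunit, held 24.5, 28.9, 25.6 and 26.4 RPKM in AdCRE against 29.9, 33.3, 33.2 and 32.8 in AdGFP, again without overlap (-0.29, SE 0.07, adjusted p = 0.128, and 0.00264 with the block). Mrps16, of the small subunit body, held 41.2 to 44.2 RPKM in AdCRE against 44.6 to 55.5 (-0.26, SE 0.08, adjusted p = 0.193, and 0.00946 with the block). Mrpl45, which holds the ribosome at the inner membrane, held 20.0 to 22.7 RPKM against 23.8 to 25.5 (-0.20, SE 0.06, adjusted p = 0.204, and 0.00969 with the block). In both the groups stood close, with the highest AdCRE library just below the lowest AdGFP library.

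The 3 members called higher with the block were Mrps28, Mrpl52 and Mrps18c. Mrps28, of the small subunit, held 17.3, 21.0, 17.6 and 16.4 RPKM in AdCRE and 13.2, 15.9, 15.0 and 14.6 in AdGFP, so that the lowest AdCRE library was just above the highest AdGFP library (0.29, SE 0.09, limma adjusted p = 0.213, and 0.00582 with the block). Mrpl52, of the central protuberance, held 33.6, 36.8, 36.2 and 28.1 RPKM against 27.1, 31.6, 32.8 and 26.4 (0.19, SE 0.11, adjusted p = 0.465, and 0.0202 with the block). The groups overlap for Mrpl52, but each AdCRE library was above its own pair. Mrps18c, the one of the 3 mammalian Mrps18 paralogues that sits in the small subunit at the place of the bacterial protein, held 12.8 to 14.6 RPKM against 11.8 to 13.3 (0.18, SE 0.07, adjusted p = 0.29, and 0.0334 with the block). Its paralogues Mrps18a, which is known to sit in the large subunit in spite of its name, and Mrps18b differed by -0.07 and -0.05 and were not called either way.

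**Figure D2:**
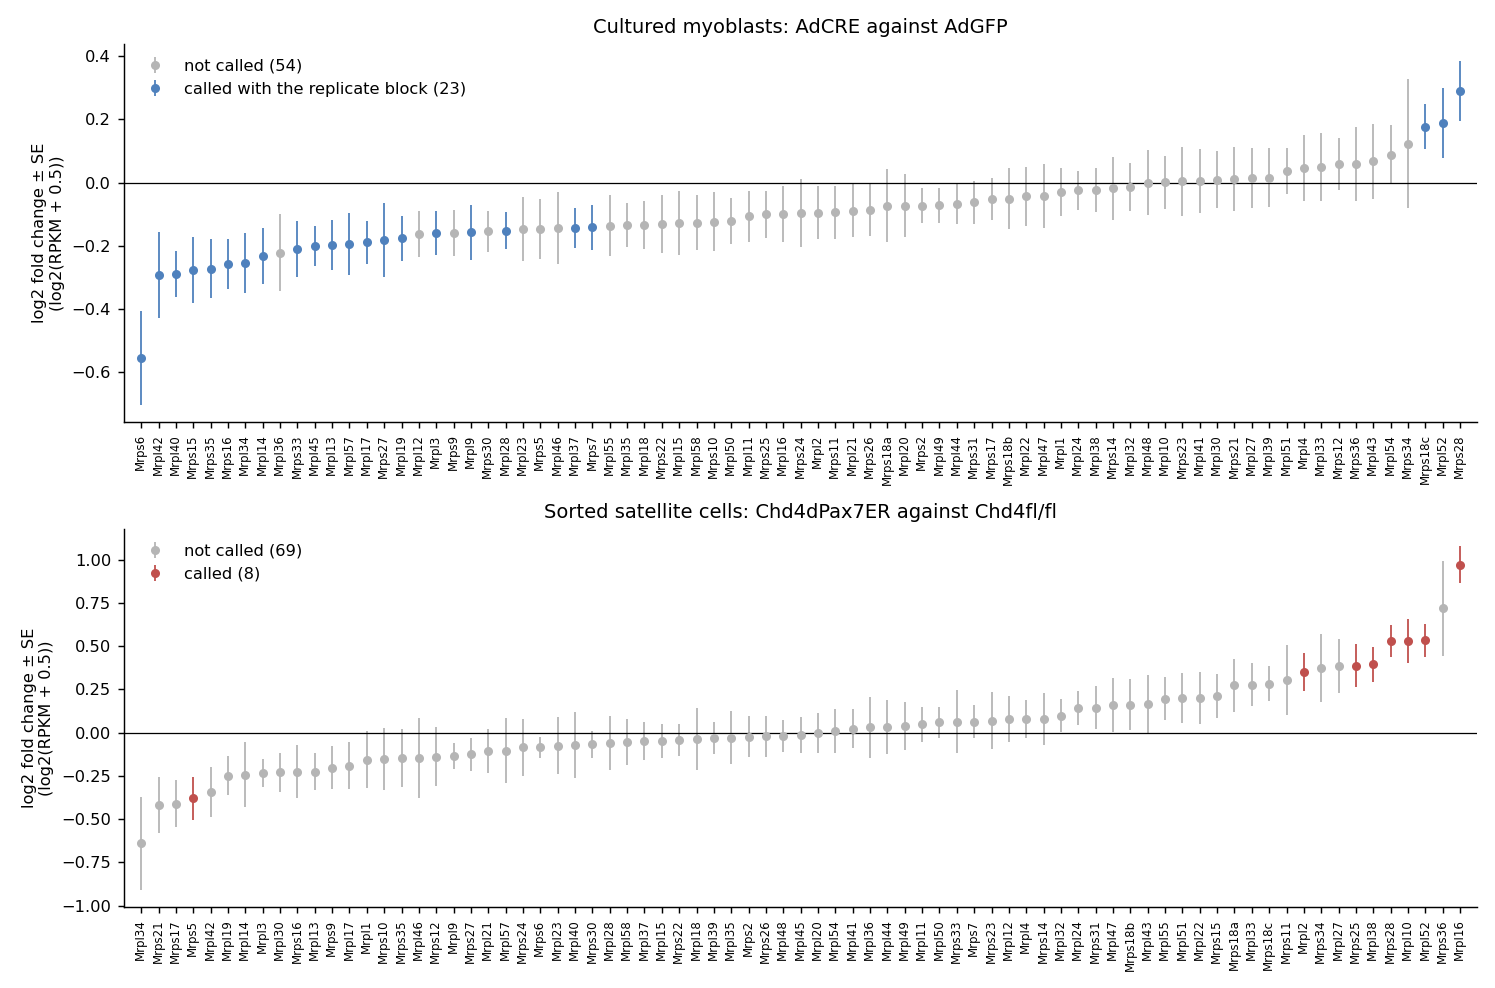
Log2 fold change (y axis, ± limma SE) of each of the 77 tested members (x axis, in order of fold change) in culture (top) and in sorted cells (bottom), with n = 4 libraries a group. In culture 59 of 77 were negative and Mrps6 (-0.56) stood at the low end, and in sorted cells Mrpl16 (0.97) stood at the high end. The vertical scales differ.

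In sorted cells most members stayed close to their level in Chd4fl/fl while a few rose. Of the 77, limma called 7 higher in Chd4dPax7ER (14.7% of all genes were) and 1 lower (11.9% of all genes). The 8 are 10.4% of the members, against 26.6% of all genes, and 16 members were at an unadjusted p under 0.05. Signs were even, with 38 positive and 39 negative, and the median was -0.02, the same as over all genes. Within 0.25 of 0 lay 58 members (75.3%, against 45.7% of all genes). The mutant libraries lay wholly above the control libraries for 7 members (16% of all genes) and wholly below for 2 (14.3% of all genes). With each library rescaled to a common sum (TPM), the split of calls moved from 7 higher and 1 lower to 5 higher and 3 lower (Mrps5, Mrps17 and Mrpl3), and with quantile scaling to 5 and 4. Over all genes TPM scaling moved it from 1960 higher and 1588 lower to 1698 and 1960.

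Mrpl16, a large subunit protein of bacterial origin next to the site of peptide bond formation, lies at chr19:11770415-11774956. It held 37.0, 36.6, 34.6 and 41.0 RPKM in Chd4dPax7ER replicates 1 to 4 and 23.1, 17.9, 17.2 and 17.3 in Chd4fl/fl. Every mutant library was above every control library by a wide margin, and the mean was 198% of control (37.3 ± 2.69 against 18.9 ± 2.82 RPKM). The fold change was 0.97 (SE 0.10, limma adjusted p = 0.000364) and stayed called in all 17 alternative fits, with adjusted p from 0.000197 to 0.00312.

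A further 3 rises were called in all 17 alternative fits. Mrps28 (chr3:8802146-8923857) held 26.6, 24.5, 26.2 and 29.0 RPKM in the mutant and 17.9, 18.4, 15.97 and 21.0 in control libraries (0.53, SE 0.09, limma adjusted p = 0.00393). Mrpl52 (chr14:54426909-54429750) held 23.9, 25.9, 23.4 and 28.2 RPKM against 15.7, 19.5, 18.3 and 16.01 (0.53, SE 0.10, adjusted p = 0.00429). Mrpl10 (chr11:97041582-97049213), which forms the base of the stalk that recruits translation factors, held 27.1, 22.5, 28.0 and 30.2 RPKM against 14.6, 20.0, 19.1 and 20.4 (0.53, SE 0.13, adjusted p = 0.0147). For all 3 the groups did not overlap, and each mean was 145 to 146% of control.

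Mrpl38, of the central protuberance, rose from 16.4, 19.4, 15.4 and 20.0 RPKM in Chd4fl/fl to 25.2, 22.8, 21.4 and 24.5 in Chd4dPax7ER (0.39, SE 0.10, limma adjusted p = 0.0199), again without overlap. It lost its call in 1 of 17 alternatives, without Chd4fl/fl replicate 1 (adjusted p = 0.0538). Calls of the other 3 members were less stable. Mrpl2, a large subunit protein of bacterial origin that binds the rRNA of the catalytic core, held 26.3 to 31.5 RPKM in the mutant against 18.8 to 26.5, so that the groups touch (0.35, SE 0.11, adjusted p = 0.0438, lost in 11 of 17 alternatives). Mrps25, a small subunit protein without a bacterial homologue, held 4.33 to 5.12 RPKM against 3.21 to 4.16 (0.39, SE 0.12, adjusted p = 0.0473, lost in 12 of 17). Mrps5, at the mRNA entry of the small subunit and the 1 member that fell, held 6.51, 4.86, 5.50 and 6.72 RPKM in the mutant against 8.59, 7.89, 7.02 and 7.65 (-0.38, SE 0.12, adjusted p = 0.0497, lost in 11 of 17). Mrps17, also a small subunit protein of bacterial origin, was just outside: 4.57 to 6.81 RPKM against 7.30 to 8.32, without overlap (-0.41, SE 0.14, adjusted p = 0.0509).

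Mrps36, Mrpl34, Mrpl42 and Mrps6 were not called. Mrps36 held 6.06 to 7.92 RPKM in the mutant against 3.72, 6.58, 2.22 and 5.76 in control libraries (0.72, SE 0.27, limma adjusted p = 0.0826). The call was made without Chd4fl/fl replicate 2 (adjusted p = 0.0429) and with a replicate block (0.0488). It bears a ribosomal name but is now known as a subunit of the 2-oxoglutarate dehydrogenase complex. Mrpl34, of bacterial origin, held 5.80, 8.76, 6.71 and 15.6 RPKM against 10.9 to 15.7 (-0.64, SE 0.27, adjusted p = 0.108). Mutant replicate 4 alone reached the control range, and without it the call was made (adjusted p = 0.00904). Mrpl42, the highest member, held 77.3 to 122.8 RPKM against 110.6 to 142.0 (-0.34, SE 0.14, adjusted p = 0.107). Mrps6, which led in culture, held 31.6 to 34.5 RPKM against 33.5 to 36.6 here (-0.09, SE 0.06, adjusted p = 0.334).

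**Figure D3:**
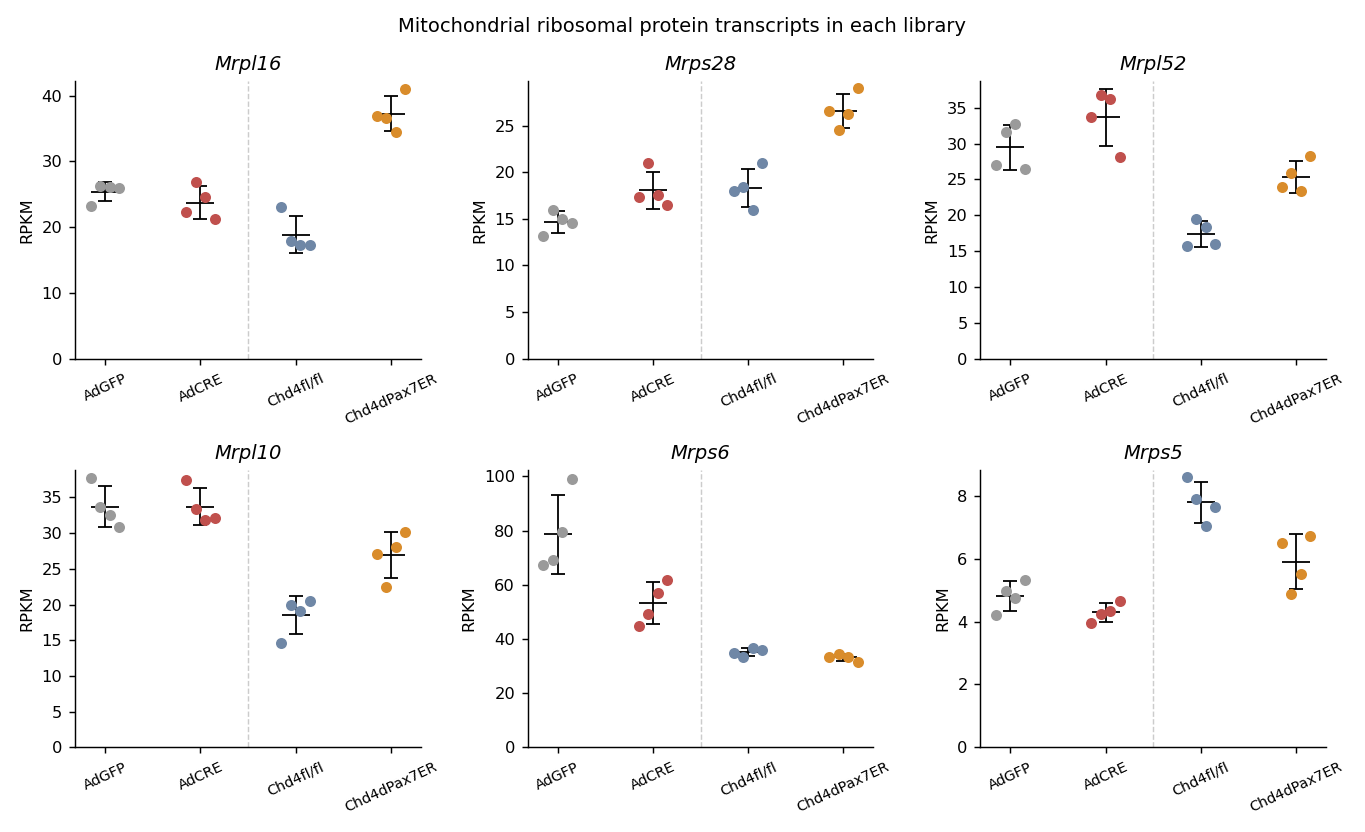
RPKM (y axis, from 0) of 6 members in each library of the 4 groups (x axis), with the mean and SD of n = 4 libraries in black. The Mrpl16 libraries of Chd4dPax7ER (34.6 to 41.0 RPKM) lie above those of Chd4fl/fl (17.2 to 23.1 RPKM), and Mrps6 is lower in AdCRE than in AdGFP without overlap. The dashed line divides 2 tables that were normalized separately, so levels are not compared across it.

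Summed over all members, AdCRE libraries held 1410, 1442, 1378 and 1301 RPKM and AdGFP libraries 1478, 1486, 1538 and 1483. The groups did not overlap (1383 ± 60.5 against 1496 ± 27.9 RPKM, n = 4 each). The same held for the Mrps genes (417 to 443 against 465 to 497 RPKM), whereas sums of Mrpl genes overlapped narrowly (885 to 999 against 990 to 1040 RPKM). In summed RPKM, the lack of overlap in both depends on Mrps6, whose mean was 53.2 RPKM in AdCRE against 78.7 in AdGFP. The Mrps sums averaged 434 against 481 RPKM. Without Mrps6, the groups overlap narrowly in the sum of all members and in that of the Mrps genes. Even so, each AdCRE library stays below the AdGFP library of its number in both sums. The Mrpl sums, which do not hold Mrps6, were also lower in AdCRE in every pair. As a share of the library sum, all members together made up 0.437 to 0.454% in AdCRE against 0.472 to 0.514% in AdGFP, without overlap. In sorted cells the mutant held 1462, 1245, 1239 and 1424 RPKM and controls 1373, 1337, 1247 and 1312, so that the mutant libraries spread on both sides of the control libraries (1342 ± 117 against 1317 ± 53.0 RPKM). Mutant replicates 1 and 4 were the high ones both here and in the sum of cytosolic ribosomal protein genes (21346 and 20375 RPKM, against 18065 and 17207 in replicates 2 and 3). The ratio of summed Mrps to summed Mrpl RPKM ranged from 0.386 to 0.498 over the 16 libraries. In culture it was lower in AdCRE than in AdGFP in every pair (0.444 to 0.471 against 0.459 to 0.498). Without Mrps6 it was not lower in AdCRE in any pair. In sorted cells the groups overlapped (0.386 to 0.444 in the mutant against 0.408 to 0.448).

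**Figure D4:**
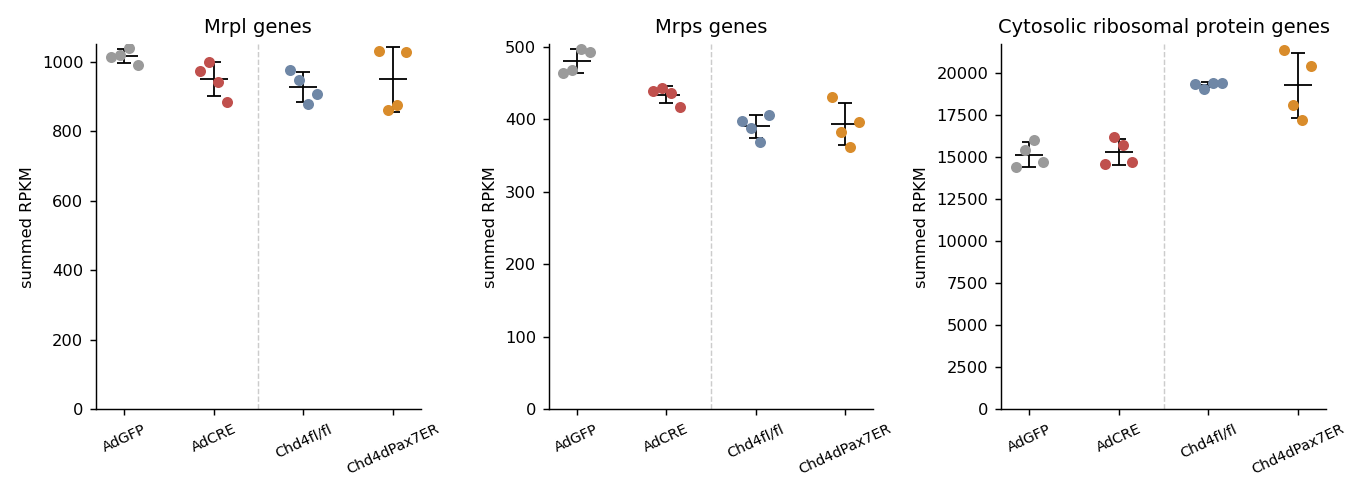
Summed RPKM (y axis, from 0) of the Mrpl genes, the Mrps genes and the cytosolic ribosomal protein genes in each library, with the mean and SD of n = 4 libraries in black. Mrps sums, with Mrps6 included, were 417 to 443 RPKM in AdCRE against 465 to 497 in AdGFP, and cytosolic sums overlapped in both settings. The dashed line divides tables that were normalized separately.

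Cytosolic ribosomal protein genes serve the other ribosome of the cell. In culture their median was 0.03 over 82 tested genes, with 0 called by limma (2 at an unadjusted p under 0.05). Under the block 5 were higher (17.5% of all genes were) and 2 lower (18.7% of all genes). In sorted cells their median was 0.00 over 83 genes, with 1 higher (14.7% of all genes) and 3 lower (11.9% of all genes). Neither the difference between the 2 families nor that between their counts was tested.

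By structural region the numbers are small, and the shares over all genes given above (14.7% higher and 11.9% lower in sorted cells, 17.5% and 18.7% in culture with the block) apply to each count. Of the 4 tested stalk proteins in sorted cells, Mrpl10 rose while Mrpl12, which binds the translation factors, differed by 0.08, Mrpl11 by 0.05 and Mrpl54 by 0.01, none of them called. Among 7 proteins of the central protuberance, Mrpl52 and Mrpl38 rose, Mrpl27 differed by 0.39 without a call (limma adjusted p = 0.0966), and Mrpl40, Mrpl46, Mrpl48 and Mrpl18 lay between -0.15 and -0.02. None of the 8 exit site proteins was called there, with fold changes from -0.19 to 0.20. In culture with the block, 2 of the 8 exit site proteins were lower (Mrpl45 and Mrpl17), 1 of 7 central protuberance proteins was higher (Mrpl52) and 1 lower (Mrpl40), and none of the 4 stalk proteins was called. Members with a bacterial homologue (46 tested) and without one (30 tested, Mrps36 left out) had medians of -0.10 and -0.08 in culture and -0.03 and 0.02 in sorted cells, with 5 and 3 members called in sorted cells. By name, the 48 Mrpl and 29 Mrps genes had medians of -0.10 and -0.09 in culture and -0.01 and -0.02 in sorted cells. Names do not always give the subunit, as Mrps18a and Mrps36 above show, so this is not a comparison of the subunits. The 25 tested members with the ETS motif had a median of -0.02 in sorted cells and the 43 without it one of 0.00.

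Each setting has its own controls, so fold changes of the same member could be set side by side and their difference tested over all 16 libraries. Mrpl16 alone passed (difference in vivo minus in vitro 1.07, SE 0.14, limma adjusted p = 0.000864), against 4.12% of the 11941 genes tested in both settings. In culture Mrpl16 held 22.4, 26.9, 24.6 and 21.2 RPKM in AdCRE and 23.2, 26.3, 26.1 and 26.01 in AdGFP (-0.10, SE 0.09), so the groups overlapped there. With the replicate block for the culture libraries 5 members passed (10.8% of all genes): Mrpl16, Mrps25 (adjusted p = 0.0381), Mrpl38 (0.046), Mrpl10 (0.0426) and Mrps6 (0.00249). Mrps25, Mrpl38 and Mrpl10 were near 0 in culture (-0.10, -0.02 and 0.00), and Mrps6 lay at -0.56 in culture and -0.09 in sorted cells. Mrps28 and Mrpl52 were called higher in sorted cells and, with the block, in culture, and no member was called in opposite directions. These 2 are 2.6% of the members, where 14% of all genes tested in both were called in the same direction and 0.854% in opposite ones. Of the 77 members, 14 had positive and 35 negative fold changes in both settings, 24 were negative in culture and positive in sorted cells, and 4 the reverse. The same sign was thus shared by 63.6% of members, against 68.6% of all genes tested in both. Across the 77 members Pearson's r of the 2 fold changes was 0.48, against 0.56 across all genes, where genes of 1 library are not independent.

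**Figure D5:**
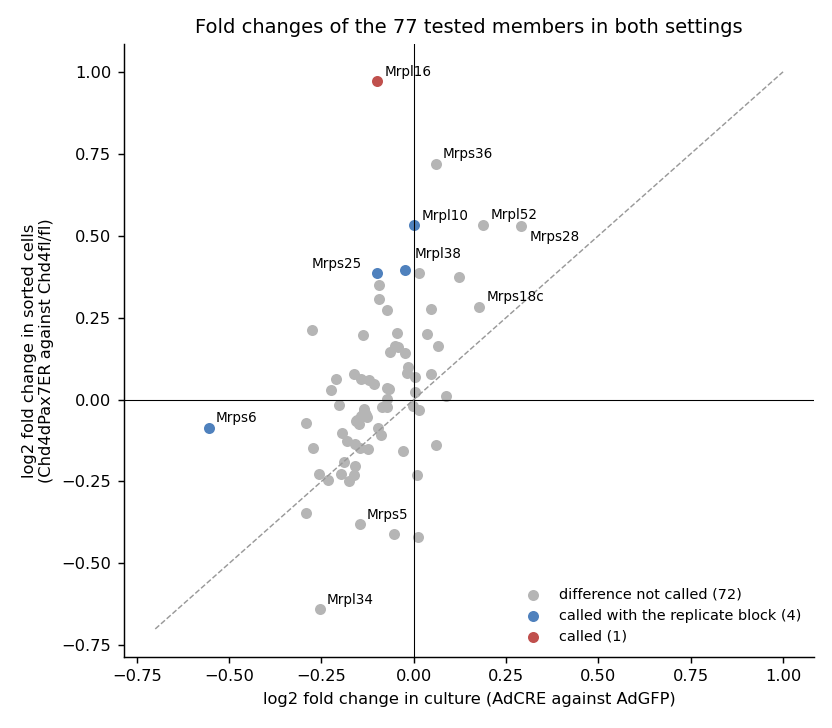
Log2 fold change of each of 77 members in culture (x axis) and in sorted cells (y axis), coloured by the test of the difference between the settings, with the line of equal change dashed. Mrpl16 lies at -0.10 and 0.97, Mrps28 and Mrpl52 are positive on both axes, and Mrps6 lies at -0.56 and -0.09.

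The RNAs and proteins that work with these proteins were taken from lists chosen with earlier results of these data known. In culture with the block, 17.5% of all genes were called higher and 18.7% lower. In sorted cells the shares over all genes were 14.7% and 11.9%. Whether any list departed from these shares was not tested. The 2 mitochondrial rRNAs varied widely between culture libraries (mt-Rnr1 from 58.0 to 307 RPKM) and were not called in either setting, with fold changes of 0.13 (mt-Rnr1) and 0.06 (mt-Rnr2) in culture and -0.14 and -0.33 in sorted cells. None of the mitochondrial mRNAs that the ribosome translates was called in either setting (13 tested in culture, 11 in sorted cells). Of 5 measured ribosomal proteins that carry other names (Dap3, Ptcd3, Gadd45gip1, Chchd1 and Aurkaip1), none was called by limma in either setting, with medians of -0.09 and 0.05. Among 30 listed assembly factors, 1 rose in sorted cells (Nsun3, an RNA methyltransferase, 0.72) and 2 fell (Noa1, a GTPase, -0.50, and Fastkd2, an RNA-binding protein, -0.40), while in culture the block called 1 higher and 8 lower, Rcc1l (-0.43) and Noa1 (-0.29) among them. Of 17 mitochondrial aminoacyl-tRNA synthetases, 9 were lower in culture with the block (median of the list -0.19) and 1, Hars2, fell in sorted cells (-0.53). Of the translation factors, Lrpprc, which stabilises mitochondrial mRNAs, rose (0.27) and Gfm2, a recycling factor, fell (-0.48) among 16 tested in sorted cells.

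Among 11 regulators of nuclear mitochondrial genes, 1 rose and 2 fell in sorted cells. That is 27.3% of the list, close to the 26.6% of all genes that were called there. Gabpa, the DNA-binding subunit of GABP, fell from 28.3, 28.4, 30.4 and 25.4 RPKM in Chd4fl/fl to 20.7, 17.9, 18.9 and 21.6 in Chd4dPax7ER (-0.50, SE 0.09, limma adjusted p = 0.00348). Yy1 fell by 0.23 (adjusted p = 0.0279), and Nrf1 differed by -0.31 without a call. Ppargc1a, a coactivator that drives mitochondrial biogenesis, rose from 1.29 to 3.01 RPKM in control to 5.51 to 10.2 in mutant libraries (1.75, SE 0.26, adjusted p = 0.00159). A separate list held genes of mitochondrial DNA transcription and maintenance. Of its 8 tested genes, 1 rose and 3 fell in sorted cells (50% called, against 26.6% of all genes). Tfam, which packages and transcribes the mitochondrial genome, fell by 0.46 (limma adjusted p = 0.00772). Mgme1 (-0.95), an exonuclease of mitochondrial DNA, and Polg (-0.37), its polymerase, fell as well, whereas Tefm, the transcription elongation factor, rose (0.87). In culture Gabpa lay at 20.1 to 21.7 RPKM in AdCRE against 24.7 to 28.6 in AdGFP, without overlap (-0.33, SE 0.07, adjusted p = 0.0916, and 0.003 with the block). With the block, 1 of the 11 regulators was higher in culture and 4 were lower. Of 9 tested genes of mitochondrial DNA transcription and maintenance, 6 were lower there with the block, against 18.7% of all genes. Of 16 other nuclear genes taken as a measure of mitochondrial content, such as Cs and Vdac1, none was called in sorted cells. In culture none of the 16 was called without the block, and 2 were lower with it.

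Other changes ran beside these. The shares of calls over all genes given above apply to the counts here as well. In bulk RNA fewer cells of a type and less RNA per cell cannot be told apart. In culture the 22 cell cycle genes had a median of -0.73, with 0 called by limma (14 at an unadjusted p under 0.05) and all 22 lower with the block, and their sum was 295 to 654 RPKM in AdCRE against 585 to 1078 in AdGFP. Mature myofibre markers were higher in 10 of 12 with the block (1245 to 4949 against 956 to 4026 RPKM), and the 2 tested markers of fibro-adipogenic progenitors rose (list sums 11.4 to 17.2 against 2.23 to 4.97 RPKM). Of 3 tested leukocyte markers 2 were higher with the block (list sums 18.8 to 28.8 against 6.94 to 11.97 RPKM), and of 2 endothelial markers 1 was (1.67 to 2.63 against 0.8501 to 1.16 RPKM), with Adgre1, C1qa, C1qb, Emcn, Tie1 and Dpt listed at 0 in all culture libraries. The part of these in the shift of the members in culture was not tested. In sorted cells the same genes had a median of -0.46 with 6 of 22 lower (sums 395 to 745 against 773 to 1049 RPKM). Mature myofibre markers rose in 11 of 11 tested (sums 1147 to 3065 against 352 to 705 RPKM), markers of fibro-adipogenic progenitors in 4 of 6 (166 to 295 against 30.3 to 43.0 RPKM) and of leukocytes in 1 of 11 (103 to 216 against 80.0 to 159 RPKM). Of the satellite cell markers 4 rose and 1, Pax7, fell. Endothelial markers summed to 3.82 to 10.9 RPKM in mutant and 3.06 to 5.79 in control libraries. The part of these cells in the rises of Mrpl16, Mrps28, Mrpl52 and Mrpl10 was not tested.

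Neighbouring genes bear on how far a member's reads are its own. In RefSeq GRCm38.p6, 20 of the 78 members overlap another protein-coding gene, and the sources used here do not say whether the authors counted by strand, so reads in such overlaps cannot be told apart. Mrps6 (chr16:92058336-92112227) overlaps Slc5a3, a myo-inositol transporter gene (chr16:92058322-92087473) that starts just before it and so reaches into the promoter window printed above. Slc5a3 held 15.0 RPKM in AdCRE against 24.8 in AdGFP (-0.71, limma adjusted p = 0.302, and 0.000759 with the block). Mrps25 overlaps Nr2c2, which went the other way in sorted cells (-0.47, adjusted p = 0.00771). Mrpl2 overlaps Klc4 (0.19, adjusted p = 0.49) and has Cul7 206 bases away, which rose (0.53, adjusted p = 0.0035). No protein-coding gene overlaps Mrpl16, Mrps28, Mrpl10, Mrpl52, Mrpl38 or Mrps5. Mrps28 does overlap the pseudogene Gm15466 and the long noncoding RNA genes Gm52600 and Gm52601. Lrrc46 (chr11:97034602-97041369), 213 bases from Mrpl10, reaches into the Mrpl10 promoter window printed above. Stx3, 162 bases from Mrpl16, differed by 0.35 without a call in sorted cells (adjusted p = 0.09). Mmp14, 1848 bases from Mrpl52, rose (1.19, adjusted p = 0.000883), and so did Osbpl7, 1420 bases from Mrpl10 (1.36, adjusted p = 0.00144).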

How the data were processed

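RNA was sequenced from 16 libraries in 4 groups of 4, grouped and numbered by their titles. The values are RPKM that the authors deposited as 1 table per setting, normalized separately, so tests stay within a table except for fold changes. The submitters' processing notes name FastQC 0.11.8, cutadapt 1.18, HISAT2 2.1.0, Picard 2.18.15 and the build mm10 (GRCm38), without saying which served the RNA tables. The sources used here name no counting program, gene lengths or use of strand. Genes with at least 0.5 RPKM in at least 4 of 8 libraries were tested as log2(RPKM + 0.5) with limma 3.58.1 (trend, R 4.3.3), without a replicate block, and all genes were adjusted together. The difference between settings came from 1 fit over 16 libraries. Fits were checked on simulated data. In culture, libraries of the same number deviated together (r 0.711 to 0.856 over all genes), so blocked values are given beside the others. Named members were those that passed (at most 10 each way), the 5 with the smallest p where fewer than 5 passed, in the block fit in culture and between settings, the 5 highest and 3 lowest control levels, and the Mrps18 paralogues. Of other lists at most 3 passing genes and the 2 rRNAs were named. Mrps17, the structural region members, the neighbours and other genes beyond this rule were named after their values were seen. Members and lists were chosen with earlier results of these data known. Alternatives changed the pseudocount, filter, scaling, trend, block and libraries, and 3 that join block and scaling were added after seeing the data. The tables held 0 columns of other samples.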

Additional observations from a re-analysis of the deposited data

Results flagged for a closer look

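In 5 of the 112 sets of 4 libraries examined (4.46%), 1 library stood far from the others by Dixon's criterion, which chance meets in about 1 of 20 sets. Mrpl16 was low in AdGFP replicate 1 (23.2 RPKM against 26.01 to 26.3 in the other libraries) and high in Chd4fl/fl replicate 1 (23.1 RPKM against 17.2 to 17.9). Mrpl40 was low in AdGFP replicate 1 (29.9 RPKM against 32.8 to 33.3), and the summed members were high in AdGFP replicate 3 (1538 RPKM against 1478 to 1486). Mrps18a was low in Chd4dPax7ER replicate 2 (6.45 RPKM against 7.04 to 7.16).

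The fold change of Mrpl16 differed between the settings by 1.07 on the log2 scale (limma adjusted p = 0.000864), with all 4 mutant libraries above all 4 controls in sorted cells and overlapping groups in culture.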

How the results depend on the processing

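No called member changed direction under any alternative run. In culture the counts of called members were 0 higher and 0 lower without a block and 3 and 20 with the replicate block. With the block and 1 pair left out they were 1 to 2 higher and 8 to 17 lower: 1 and 9 without pair 1, 2 and 17 without pair 2, 2 and 8 without pair 3 or 4. With the block and another scaling, chosen after seeing the data, they were 2 and 26 (TPM), 3 and 21 (quantile) and 2 and 28 (without the mitochondrial genome), or 36.4%, 31.2% and 39% of members against 35.7%, 36.5% and 36.8% of all genes. In sorted cells the count of lower members (1) became 0 with the replicate block, a pseudocount of 1, no filter or no trend, 2 with a filter of 1 RPKM, 3 with TPM scaling or without the mitochondrial genome and 4 with quantile scaling. Leaving out 1 library gave 4 to 8 higher and 0 to 3 lower, with 4 higher without Chd4fl/fl replicate 1. Replicate numbers did not pair these libraries (r -0.0967 to 0.0499), and with the block 7 were higher, with Mrps36 in and Mrps25 out. The members' median lay between -0.12 and -0.06 in culture without 1 library, and between -0.05 and 0.04 in sorted cells, above 0 without Chd4dPax7ER replicate 2 or 3 or Chd4fl/fl replicate 1 or 2. Members that differed between the settings numbered 5 with the block and 2 with a pseudocount of 0.1, against 1. The cause of these differences was not tested. Depth in sorted cells is unknown, so counting error of low members such as Mrps25 is not known.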
